A study of Homo sapiens with 24 samples.

Results

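The early transcript response of lung cancer cells to CAF conditioned medium was described from the 6 mRNA libraries collected at 3, 6 and 12 h. Genes were included where the mean level over these 6 libraries was at least 1 RPKM (reads scaled to the length of the gene model and to the mapped reads of the library). This took 11735 of the 22026 genes of the authors' table, and 6 of the 24 samples of the series. The last gene inside had a mean of 1 RPKM and the first outside 0.998 RPKM. The cells were A549, an established line from a human lung adenocarcinoma. One group was kept in control medium and the other in CAF conditioned medium. The labels do not spell out CAF, which in this field usually stands for cancer-associated fibroblast. They do not say which cells or how many donors conditioned the medium, what the control medium held, or whether it was renewed. Cells of both groups were also collected at 24, 48 and 72 h, and small RNA was sequenced from all of them. Each medium and time has 1 column of mRNA values. The series' design mentions 2 biological replicates, but no column keeps them apart, and a difference at a single time therefore has no replicate to check it.

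Fibroblasts of a tumour secrete cytokines, growth factors and matrix proteins that act on the neighbouring cancer cells, and medium conditioned by them carries these signals without cell contact. Among the pathways such signals reach in airway epithelial cells is NF-kB, a family of transcription factors that drives chemokine and cytokine genes and its own inhibitors. Cytokines of the IL6 family act through STAT3, TGF-beta and its relatives through SMAD proteins, and growth factors through the MAPK and AKT kinases. AKT holds FOXO transcription factors outside the nucleus, so genes of cell cycle exit and catabolism rise in many cells when growth factors are withdrawn.

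The 6 libraries held 23.9 to 29.3 M reads by the steps between low values, and 97.0 to 97.5% of these fell in genes of the table. The epithelial keratin transcripts KRT8 (1719 to 2357 RPKM) and KRT18 (721 to 1109 RPKM) and the A549-typical ALDH1A1 (3147 to 4476 RPKM) and AKR1B10 (296 to 378 RPKM) were high in all 6 libraries. The lung lineage factor NKX2-1 (at most 0.02 RPKM) and the alveolar surfactant gene SFTPC (at most 0.18 RPKM) were at or near 0, and the epithelial adhesion gene EPCAM was at 0.24 to 1.32 RPKM. Of 16 fibroblast markers, 11 stayed under 1 RPKM in all 6 libraries, among them COL1A2 (at most 0.02 RPKM), COL3A1 (at most 0.08 RPKM) and PDGFRB (at most 0.06 RPKM). Their summed level was 74.2 to 135 RPKM in control and 72.2 to 96.6 RPKM in CAF medium, most of it from S100A4. Of 15 markers of blood, endothelial and muscle cells, 13 stayed under 1 RPKM throughout, with a summed level of 22.2 to 23.8 RPKM in control and 15.4 to 21.3 RPKM in CAF medium.

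Differences were tested with limma on log2(RPKM + 0.5), with each CAF medium library set against the control of its own time and the 3 times as replicates. A log2 change below is this fitted difference, CAF medium minus control, with its standard error (SE), and adjusted p-values are Benjamini-Hochberg values over the 11735 genes at 0.05. Separate cultures are not stated in the labels, and the p-values therefore measure no more than the scatter among these libraries, part of which may be technical. A medium difference that changes between times also counts as scatter here. The test thus favours differences that are steady over 3 to 12 h, and a gene that did not pass may still differ at 1 time. A gene was said to rise or fall where it passed this test. The calls rested most on the 6 and 12 h pairs. Without the 12 h pair no gene passed (limma, smallest adjusted p = 0.0538, with 2138 genes at an unadjusted p under 0.05), and without the 6 h pair 15 did. Without the 3 h pair 307 genes rose and 202 fell, and only 338 of the 653 genes called in the main fit were among them. Without the late 24 h pair, which shares the estimate of spread, 707 rose and 311 fell, with 651 of the 653 among them. No gene passed when genes of any level were tested (limma, smallest adjusted p = 0.101, 3797 unadjusted), and 15 passed without the time term.

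In CAF medium 430 genes rose (3.66% of those tested) and 223 fell (1.90%), together 653 (5.56%). In all, 2926 genes had an unadjusted p under 0.05. The change was at least 2-fold, a log2 change of 1 on this scale, in 87 of the genes that rose and 36 of those that fell. All 653 moved the same way at 3 of 3 times, which a test with the 3 pairs as replicates largely selects for. The RPKM of the 2 groups of libraries did not overlap in 421 of the 430 and 194 of the 223. That trait is also favoured by the selection, and its share among all tested genes is not given here. Groups said below to be apart describe the values and add no support to a call. For comparison, 25.9% of all tested genes were higher in CAF medium at 3 of 3 times and 18.0% were lower. Counts of list members below stand against these shares and the 3.66% and 1.90% called, and no list was tested as a set. In bulk RNA of this kind, fewer cells of a state and less RNA per cell cannot be told apart.

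**Figure D1:**
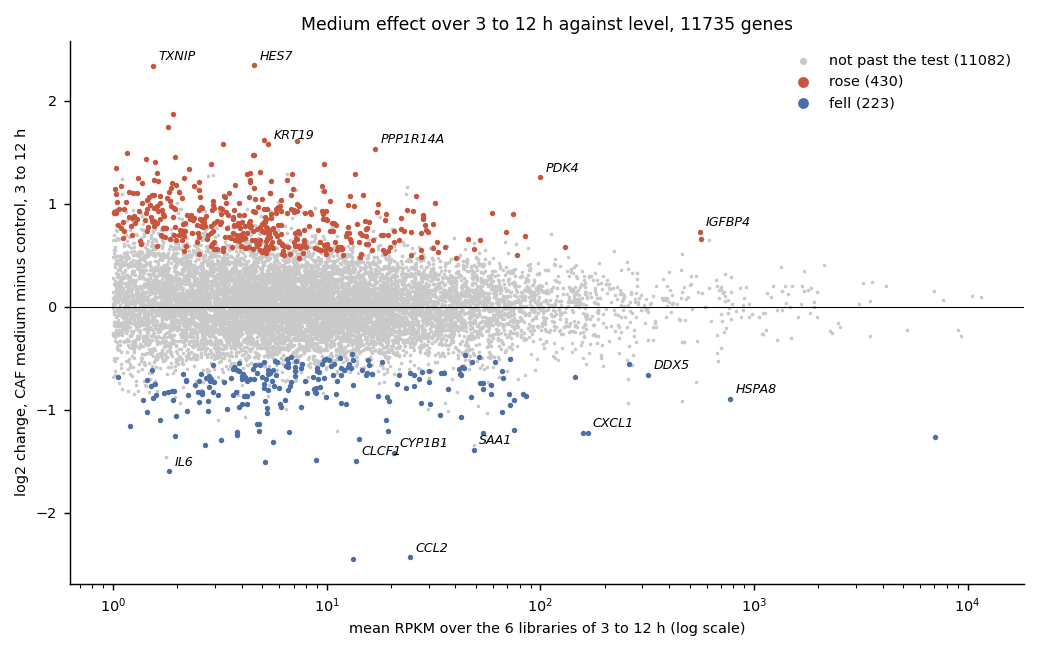
Fitted log2 change over 3 to 12 h (y axis, CAF medium minus control, on log2(RPKM + 0.5)) against the mean RPKM over the 6 libraries (x axis, log scale) for each of the 11735 genes, with the 430 that rose in red and the 223 that fell in blue. HES7 and TXNIP stand at the top and CCL2 at the bottom, and the unlabelled blue points beside CCL2 and at the far right are DQ584698 and DQ582201, gene models of 57 and 133 bases.

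Of gene models of at least 400 bases, CCL2, IL6 and CLCF1, a chemokine and 2 cytokine genes, had the deepest falls. Of 30 listed NF-kB targets and cytokines 21 were tested, and 11 of them fell while none rose, against 1.90% and 3.66% of all tested genes. Their median log2 change was -0.97, against 0.02 for all tested genes. At 3 of 3 times 17 of the 21 were lower, against 18.0% of all tested genes. TNF was at 0 RPKM in all 6 libraries and IL1A, IL1B and ICAM1 stayed under 1 RPKM, so these could not be followed. Leaving out the 3, 6 or 12 h pair left 9, 3 or 0 falls in the list, while its median stayed between -1.02 and -0.78 under the alternatives tried.

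CCL2, which attracts monocytes, was at 85.3, 20.7 and 23.3 RPKM in control medium at 3, 6 and 12 h and at 6.22, 5.21 and 6.73 RPKM in CAF medium. The CAF medium libraries all lay far below the controls, and the gap was widest at 3 h, where the control library was at its highest. The log2 change was -2.43 (SE 0.30, adjusted p = 0.00953). CXCL1, a neutrophil attractant and the most abundant of the fallen chemokines, was at 284, 179 and 239 RPKM in control and 102, 107 and 86.8 RPKM in CAF medium. Its neighbour CXCL2 was at 20.5, 17.7 and 22.4 RPKM against 8.35, 8.20 and 7.41 RPKM. CXCL3 was at 9.02, 5.41 and 5.53 RPKM against 3.54, 2.72 and 1.96 RPKM. In none of the 3 did the groups overlap, and the log2 changes were -1.22 (SE 0.16), -1.28 (SE 0.18) and -1.14 (SE 0.15), with adjusted p-values of 0.00953, 0.0105 and 0.0105. The 3 genes are close copies of each other, and reads that match more than 1 of them may have been divided among them. IL8, another chemokine for neutrophils, missed the threshold with a log2 change of -0.93 (adjusted p = 0.0508), at 59.7, 37.6 and 45.1 RPKM in control and 21.8, 30.2 and 21.4 RPKM in CAF medium. CXCL5, the most abundant chemokine of the list, was at 569, 681 and 704 RPKM in control and 363, 657 and 249 RPKM in CAF medium (adjusted p = 0.0873), so that it hardly differed at 6 h.

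IL6, CLCF1 and LIF, cytokines that signal through the shared receptor subunit gp130, fell with them. IL6 was at 4.16, 2.26 and 2.54 RPKM in control and 0.23, 0.80 and 0.99 RPKM in CAF medium (log2 change -1.60, SE 0.27, adjusted p = 0.0136). CLCF1 was at 22.5, 21.3 and 17.3 RPKM against 8.91, 5.75 and 6.29 RPKM (-1.49, SE 0.21, adjusted p = 0.0105). LIF was at 9.17, 6.75 and 5.89 RPKM against 3.61, 3.02 and 3.16 RPKM (-1.03, SE 0.22, adjusted p = 0.0290). Every CAF medium library was below every control library in these genes. IL11, of the same family, had a log2 change of 0.16 (adjusted p = 0.745).

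Among subunits and regulators of NF-kB itself, NFKB1, RELB, TNFAIP3 and TNIP1 fell, while NFKBIA, NFKB2 and REL did not pass. NFKB1, which encodes the p50 subunit and its precursor, was at 8.11, 7.49 and 5.65 RPKM in control and 4.69, 2.97 and 2.54 RPKM in CAF medium (log2 change -0.98, SE 0.15). RELB, a subunit of the noncanonical arm, was at 15.7, 9.29 and 6.31 RPKM against 4.63, 4.81 and 4.78 RPKM (-0.97, SE 0.21), a difference that shrank as the control level came down. TNFAIP3, the feedback inhibitor A20, was at 8.11, 7.26 and 9.22 RPKM against 5.45, 4.02 and 2.70 RPKM (-0.97, SE 0.19), a gap that widened with time. TNIP1, which binds A20, fell from a much higher level, 167 to 195 RPKM in control and 106 to 118 RPKM in CAF medium (-0.68, SE 0.14, adjusted p = 0.0230). SOD2, the mitochondrial superoxide dismutase and a classical NF-kB target, was at 99.5, 76.5 and 88.0 RPKM against 56.8, 47.8 and 29.2 RPKM (-1.02, SE 0.18). NFKBIA, the inhibitor that NF-kB induces first, was lower at every time by less, 54.0, 65.7 and 74.1 RPKM against 45.3, 51.7 and 61.5 RPKM, and did not pass (adjusted p = 0.199). NFKB2 had a log2 change of -0.50 (adjusted p = 0.188) and was lower at 2 of 3 times. REL was higher in CAF medium at 3 of 3 times (0.21, adjusted p = 0.472).

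**Figure D2:**
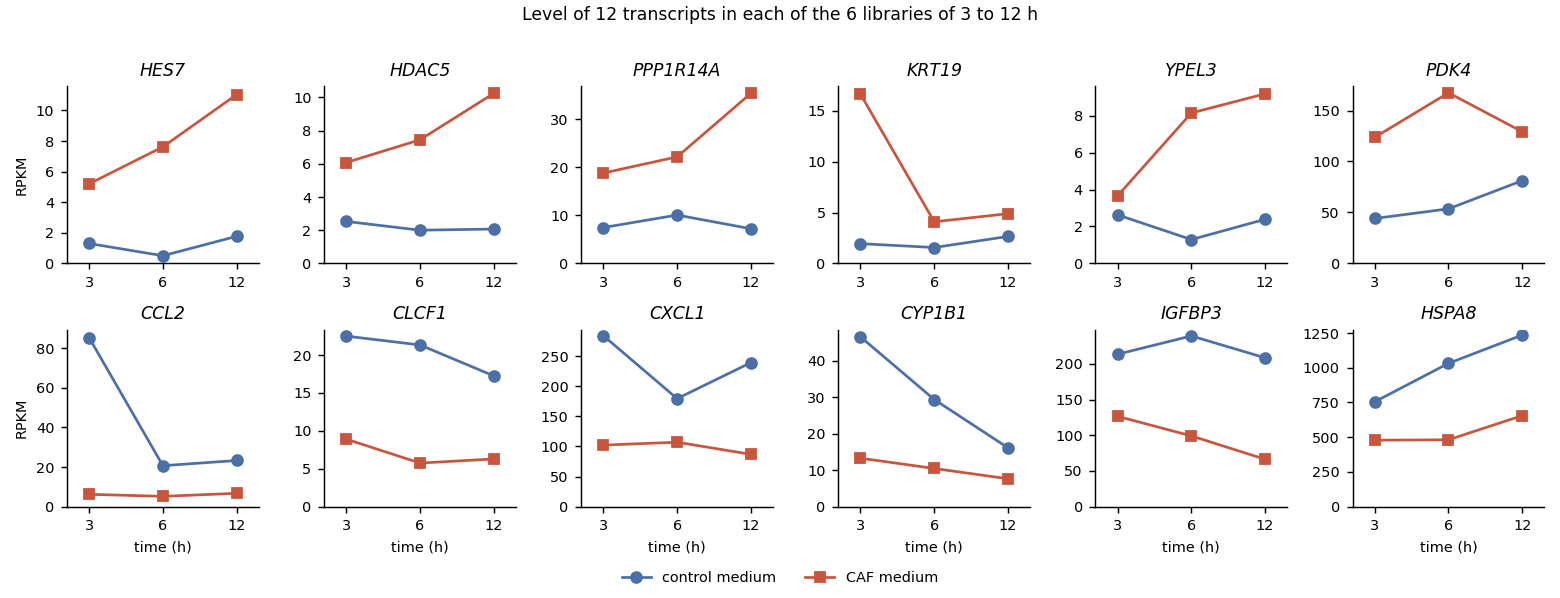
RPKM (y axes, each from 0) of 12 transcripts at 3, 6 and 12 h (x axes) in the control medium library (blue circles) and the CAF medium library (red squares) of each time, with 1 library per point and no error bar. The upper 6 genes rose and the lower 6 fell, and in all 12 every CAF medium point lies on 1 side of the control points.

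Promoters of the fallen NF-kB list members are shown because this list holds the 3 deepest falls and a motif of these factors can be looked for near the start site. RefSeq promoters (GRCh38.p14, 250 bases before to 50 after the start) were matched by symbol for 8499 of the tested genes, 305 that rose and 151 that fell. The NF-kB type motif GGNNTTTCC, searched on both strands, was in 11 of 15 list members with a promoter and in 6 of the 7 that fell. The list was made of known NF-kB targets, so a high share follows from its making and is no result about the fall. CXCL5, BIRC3, NFKBIA, REL and BCL3 held the motif and did not pass. IL11, NFKB2, SOD2 and TRAF1 held none, SOD2 being the 1 of these that fell. The fallen CCL2, CLCF1, LIF and RELB were not matched to a promoter. The motif was in 19 of 151 promoters of all genes that fell (12.6%), in 13 of 144 (9.03%) without the list, in 6.23% of those that rose, in 6.68% of those of all tested genes and in 6.26% of the 27305 promoters of the table. A match is a description and not a binding site or a cause. Of the 6 fallen members that held it, the 5 with the deepest falls are printed for the 250 bases before the start, 5′ to 3′ on the strand of the gene, with the matches in capitals.
IL6, chr7:22726950-22727199, plus strand: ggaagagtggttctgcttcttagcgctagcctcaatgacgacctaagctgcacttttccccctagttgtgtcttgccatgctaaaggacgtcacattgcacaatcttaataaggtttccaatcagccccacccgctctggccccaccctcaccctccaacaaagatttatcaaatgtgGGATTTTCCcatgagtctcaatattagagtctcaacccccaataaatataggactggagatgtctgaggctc
CXCL2, chr4:74099196-74099445, minus strand: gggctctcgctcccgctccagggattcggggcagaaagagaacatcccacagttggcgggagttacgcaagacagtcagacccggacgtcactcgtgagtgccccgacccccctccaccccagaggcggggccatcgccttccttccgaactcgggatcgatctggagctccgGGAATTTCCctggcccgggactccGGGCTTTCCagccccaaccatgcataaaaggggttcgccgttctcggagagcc
CXCL1, chr4:73869143-73869392, plus strand: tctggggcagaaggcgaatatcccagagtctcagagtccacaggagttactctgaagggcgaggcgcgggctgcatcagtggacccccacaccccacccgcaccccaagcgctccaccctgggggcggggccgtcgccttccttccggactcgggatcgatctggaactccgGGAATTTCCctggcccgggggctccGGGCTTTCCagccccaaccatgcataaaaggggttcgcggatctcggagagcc
CXCL3, chr4:74038690-74038939, minus strand: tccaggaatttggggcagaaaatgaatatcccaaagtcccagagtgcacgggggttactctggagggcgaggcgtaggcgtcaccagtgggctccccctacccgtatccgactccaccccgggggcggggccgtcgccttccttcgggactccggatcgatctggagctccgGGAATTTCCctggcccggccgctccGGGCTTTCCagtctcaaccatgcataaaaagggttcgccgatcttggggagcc
NFKB1, chr4:102501109-102501358, plus strand: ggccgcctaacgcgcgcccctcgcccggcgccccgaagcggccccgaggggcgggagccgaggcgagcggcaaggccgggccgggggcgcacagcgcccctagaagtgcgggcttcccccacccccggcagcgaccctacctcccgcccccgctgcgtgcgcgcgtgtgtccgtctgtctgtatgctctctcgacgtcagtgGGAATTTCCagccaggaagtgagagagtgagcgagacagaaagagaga
The IL6 match GGATTTTCC began at base -72 from the start and the NFKB1 match GGAATTTCC at -48. The 3 chemokine promoters each held 2 matches, GGAATTTCC at -78 (-77 in CXCL2) and GGGCTTTCC at -53. Outside the list, the fallen genes whose promoter held the motif were C1orf53, GBP1, GPATCH4, MAP3K8, METTL25, OAS3, AP3B2, GABPB1, GRWD1, L3MBTL2, FAM200B, CYCS and NOL6, named after their values were seen. The motif TGANTCA of AP-1 was in 7.95% of promoters that fell, 4.59% of those that rose and 4.35% of all tested, and the E-box CACGTG in 15.9%, 9.84% and 10.4%.

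Downstream of IL6 family cytokines the picture was mixed. Of 25 tested genes of IL6 receptors, STAT3 and the acute phase, 4 rose and 3 fell, against 3.66% and 1.90% of all tested genes. Their median log2 change was 0.04. The serum amyloid genes SAA1 and SAA2, made in the acute phase, fell. SAA1 was at 90.2, 44.5 and 77.1 RPKM in control and 16.0, 37.8 and 27.5 RPKM in CAF medium (-1.39, SE 0.30, adjusted p = 0.0294). SAA2 was at 23.3, 9.06 and 8.54 RPKM against 3.19, 3.79 and 5.35 RPKM (-1.49, SE 0.31, adjusted p = 0.0265). The groups did not overlap, but SAA1 and SAA2 are near-identical, so their reads cannot be fully told apart. LCN2, which binds bacterial siderophores, fell as well (-0.69, adjusted p = 0.0433). The STAT-responsive kinase gene PIM1 went the other way, at 6.46, 3.32 and 4.94 RPKM in control and 10.0, 9.81 and 9.77 RPKM in CAF medium (0.98, SE 0.21, adjusted p = 0.0276). The repressor BCL6 (0.83), the cytokine signalling inhibitor CISH (0.80) and the transcription factor CEBPB (0.65) also rose, with adjusted p-values of 0.0309, 0.0456 and 0.0452. CISH was low, at 0.53 to 0.71 RPKM in control and 0.74 to 2.35 RPKM in CAF medium.

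In the list of immediate early and AP-1 genes none of 15 tested passed in either direction (limma, smallest adjusted p = 0.0613, for SRF), and the median log2 difference was -0.53 at 3 h, 0.10 at 6 h and 0.03 at 12 h. At 3 of 3 times 4 of the 15 were higher and 4 lower, against 25.9% and 18.0% of all tested genes. The 4 higher ones were JUND (0.24), IER5 (0.36), KLF6 (0.14) and ZFP36 (0.39). The next 5 genes are named after their values were seen or by the rule for single times, and none of them passed. FOSL1, an AP-1 subunit, was at 62.3, 58.9 and 29.8 RPKM in control and 10.2, 28.4 and 23.1 RPKM in CAF medium (adjusted p = 0.0657). JUN, its partner, was lower at all 3 times with its widest gap at 6 h, at 78.3, 85.4 and 64.4 RPKM against 39.3, 36.1 and 35.2 RPKM, also with an adjusted p of 0.0657. ANKRD1, a target of YAP and TEAD, was at 115, 36.4 and 12.3 RPKM in control and 13.4, 27.4 and 16.8 RPKM in CAF medium (-1.01, adjusted p = 0.221). Without the 3 h pair the sign of ANKRD1 turned, to a log2 change of 0.01. CTGF (54.9, 14.3 and 8.90 RPKM against 19.3, 12.5 and 8.50 RPKM) and CYR61 (86.0, 47.6 and 27.9 RPKM against 26.8, 28.4 and 26.5 RPKM), 2 further YAP targets, had like ANKRD1 their widest gap at 3 h, where the control library was highest, and did not pass (adjusted p = 0.230 and 0.124). Of 19 tested YAP and TEAD targets 10 were lower at 3 of 3 times, against 18.0% of all tested genes (median -0.34). None rose and 3 fell, against 1.90% of all tested genes that fell. The 3 that fell were IGFBP3, the membrane protein gene MYOF (-0.69, adjusted p = 0.0449) and the adaptor AJUBA (-0.56, adjusted p = 0.0391).

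**Figure D3:**
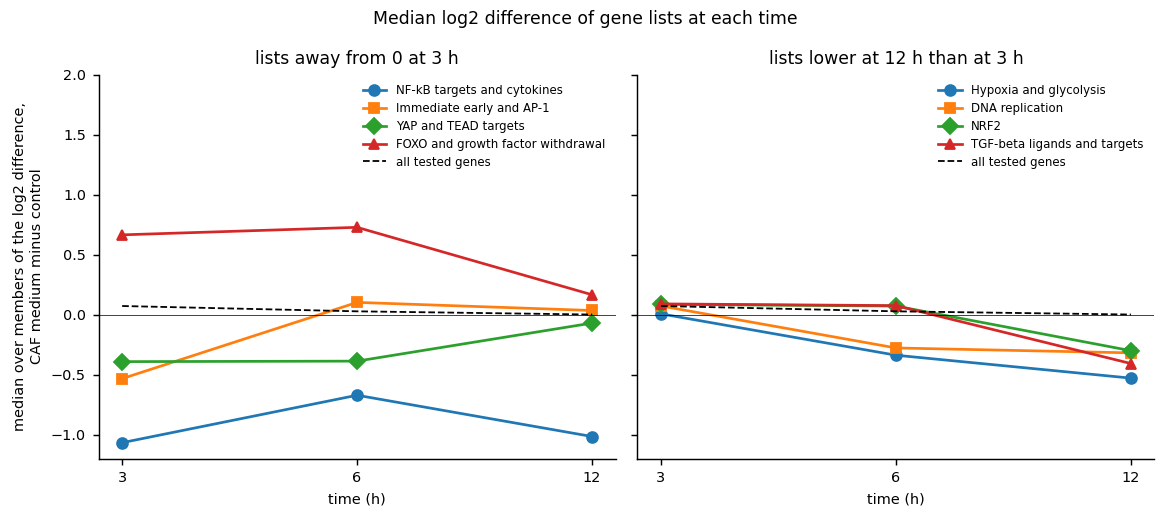
Median over the tested members of 8 gene lists of the log2 difference between the CAF medium and the control library of a time (y axes) at 3, 6 and 12 h (x axes), with the median of all tested genes as a dashed line and no test or error bar. NF-kB targets stay between -1.07 and -0.67, the immediate early list is below 0 at 3 h alone, the FOXO list drops from 0.66 at 3 h to 0.16 at 12 h, and the 4 lists on the right reach their lowest median at 12 h.

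The group with the most shared rise was that of FOXO and growth factor withdrawal. Of 21 tested members 6 rose and none fell, against 3.66% and 1.90% of all tested genes. The median log2 change was 0.60, and 13 were higher at 3 of 3 times, against 25.9% of all tested genes. YPEL3, linked to growth arrest, was at 2.63, 1.29 and 2.39 RPKM in control and 3.66, 8.15 and 9.19 RPKM in CAF medium (1.48, SE 0.30, adjusted p = 0.0228). KLHL24, a ubiquitin ligase adaptor, was at 1.18, 0.84 and 1.19 RPKM against 4.20, 3.18 and 3.03 RPKM (1.33, SE 0.19, adjusted p = 0.0105). FOXO4, a member of the factor family itself, was at 1.44, 0.65 and 0.99 RPKM against 2.39, 2.65 and 3.75 RPKM (1.18, SE 0.24, adjusted p = 0.0228). In these 3 genes the groups were fully apart, and the log2 difference of YPEL3 was 0.41 at 3 h, 2.27 at 6 h and 1.75 at 12 h, while that of KLHL24 was 1.48, 1.46 and 1.06. The transcriptional repressor HBP1 (1.10), YPEL2 (1.04) and the mitochondrial quality control kinase PINK1 (0.62) also rose, with adjusted p-values of 0.0324, 0.0427 and 0.0293. HBP1 and YPEL2 were near the control by 12 h, at 4.79 against 4.33 RPKM and 1.63 against 1.40 RPKM. Several cell cycle brakes of the list had values in the same direction without passing. CCNG2 was at 1.0, 1.47 and 2.78 RPKM in control and 4.50, 3.46 and 2.89 RPKM in CAF medium (adjusted p = 0.0521). CDKN1B, which encodes p27, was at 8.23, 9.61 and 12.1 RPKM against 19.4, 16.2 and 12.0 RPKM (adjusted p = 0.0823), so both had closed the gap by 12 h. The list had 3 rises without the 3 h pair and none without the 6 h or the 12 h pair, and its median stayed between 0.45 and 0.81.

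**Figure D4:**
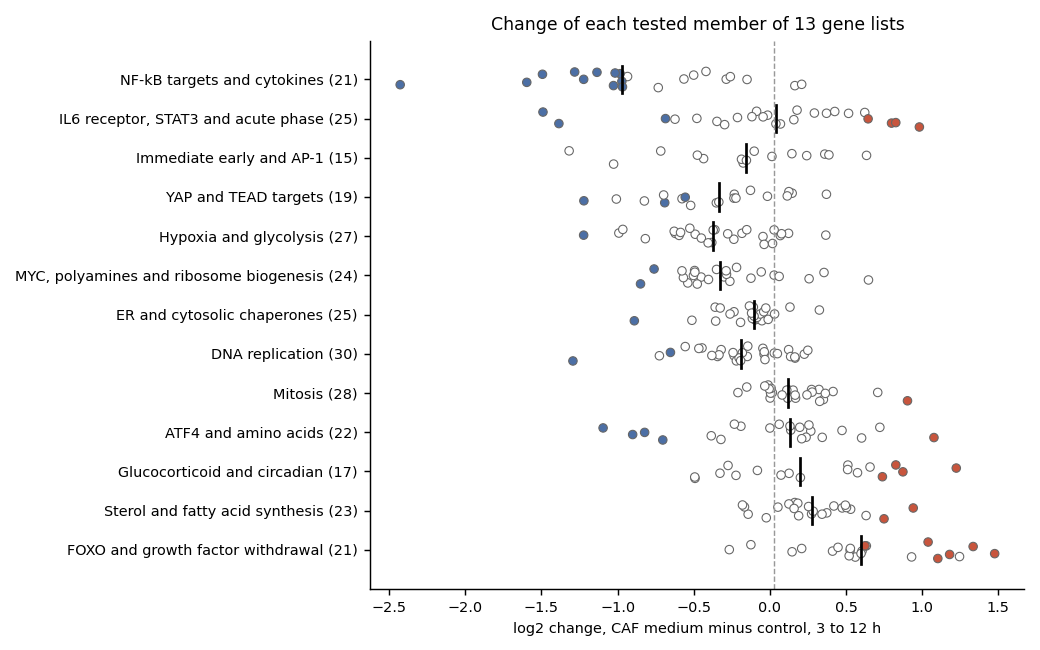
Fitted log2 change over 3 to 12 h (x axis) of every tested member of 13 gene lists (y axis, number of tested members in brackets), with members that rose in red, members that fell in blue, members that did not pass in white, the list's median as a black bar and the median of all tested genes as a dashed line. The NF-kB list has its median at -0.97 and the FOXO list at 0.60, while the medians of chaperones and mitosis genes are -0.10 and 0.12.

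The largest rises in gene models of at least 400 bases were those of HES7, TXNIP and GBX1. TXNIP and GBX1 were under 1 RPKM in every control library and so entered the test only through their level in CAF medium. A control mean under 1 RPKM, with the same limit, was found in 67 of the 430 genes that rose. PALM3, GIPR, CISH, MMP14, NR1D1, DBP, YPEL2, SPRED3 and OCLN are among the 67. In genes that fell it could not occur, since the filter on the mean of the 6 libraries removes such genes. Fallen genes with a mean under 1 RPKM in CAF medium in turn entered the test only through their control level. IL6 (0.67 RPKM), CCAT1 (0.98 RPKM) and ITGB6 (0.98 RPKM) are among them, and their number was not counted. HES7, a Notch-regulated repressor known from the segmentation clock of the embryo, was at 1.30, 0.50 and 1.77 RPKM in control and 5.20, 7.62 and 11 RPKM in CAF medium (2.34, SE 0.30, adjusted p = 0.00953). It was the only 1 of 10 tested Notch and HES genes to pass, and the median of that list was 0.09. TXNIP, an arrestin that binds thioredoxin and curbs glucose uptake, was at 0.08, 0.11 and 0.32 RPKM against 2.12, 2.94 and 3.70 RPKM (2.34, SE 0.35, adjusted p = 0.0105). The control values of TXNIP rest on 7, 8 and 28 reads. GBX1, a homeobox gene, was at 0.45, 0.57 and 0.36 RPKM against 1.62, 2.83 and 5.57 RPKM (1.87, SE 0.33, adjusted p = 0.0169). All 3 were clear of the control range at 3 h already and went on rising in CAF medium to 12 h.

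The same rise of the level in CAF medium from 3 to 12 h was seen in others of the 12 largest rises. HDAC5, a class IIa histone deacetylase, was at 2.53, 2.0 and 2.07 RPKM in control and 6.08, 7.45 and 10.3 RPKM in CAF medium (1.62, SE 0.24, adjusted p = 0.0105), alone among 10 tested class IIa deacetylase and MEF2 genes. PPP1R14A, an inhibitor of myosin phosphatase, was at 7.46, 10.1 and 7.21 RPKM against 18.8, 22.2 and 35.4 RPKM (1.53, SE 0.22). LINC00263, a noncoding RNA, was at 2.34, 2.65 and 3.58 RPKM against 4.83, 8.01 and 22.4 RPKM (1.61, SE 0.28). The paralemmin gene PALM3 (1.75), the gasdermin gene GSDMB (1.58), the incretin receptor gene GIPR (1.49) and the lipolysis inhibitor G0S2 (1.47) were low in control medium, at most 3.33 RPKM. The difference from control did not widen in all of them. On the log2 scale it was 1.60, 1.57 and 1.58 at 3, 6 and 12 h in GSDMB and 1.10, 2.25 and 1.06 in G0S2. KRT19, a keratin of simple epithelia, was the exception in its level in CAF medium: it was at 1.94, 1.56 and 2.65 RPKM in control and 16.6, 4.09 and 4.89 RPKM in CAF medium (1.58, SE 0.31, adjusted p = 0.0216), with its peak at 3 h. Over all 430 genes that rose, the difference was largest at 12 h in 198, at 6 h in 140 and at 3 h in 92, and it grew through the 3 times in 145 and shrank in 55.

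Among abundant transcripts, PDK4, the kinase that turns off pyruvate dehydrogenase, was at 44.1, 53.5 and 81.2 RPKM in control and 124, 167 and 129 RPKM in CAF medium (1.26, SE 0.21, adjusted p = 0.0135). With TXNIP it made up the 2 of 14 tested arrestin and glucose-sensing genes that rose, against 3.66% of all tested genes, and none fell. ANXA1, an inhibitor of phospholipase A2, was at 405, 438 and 471 RPKM against 640, 754 and 682 RPKM (0.66, SE 0.16, adjusted p = 0.0397). It is 1 of 3 that rose, with none falling, of 12 tested genes of arachidonate and prostaglandin metabolism, against 3.66% of all tested genes. The others were PLA2G4A, the phospholipase that frees arachidonate (4.82 to 7.37 RPKM in control, 12.3 to 15.6 RPKM in CAF medium, 1.12, adjusted p = 0.0365), and LTA4H, of leukotriene B4 synthesis (0.57, adjusted p = 0.0387). The linker histone genes H1F0 (0.90, adjusted p = 0.0265) and H1FX (0.91, adjusted p = 0.0418), and UBXN1 (0.69, adjusted p = 0.0393) also rose.

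Of the insulin-like growth factor binding proteins, which hold the growth factor in the medium, IGFBP4 and IGFBP7 rose and IGFBP3 fell. IGFBP4 was at 419, 421 and 416 RPKM in control and 657, 612 and 835 RPKM in CAF medium (0.73, SE 0.15, adjusted p = 0.0265). IGFBP7 was at 98.2, 89.7 and 127 RPKM against 171, 150 and 146 RPKM (0.58, SE 0.14, adjusted p = 0.0418). IGFBP3 was at 213, 239 and 208 RPKM against 127, 99.1 and 66.3 RPKM (-1.22, SE 0.22, adjusted p = 0.0173). In each the 2 groups of libraries were apart, and the IGFBP3 gap widened to 12 h. The other tested genes of the family, looked up after these values were seen, did not pass: IGFBP1 had a log2 change of 0.17 (adjusted p = 0.622), IGFBP2 of -0.06 (0.867) and IGFBP6 of 0.14 (0.683).

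Several genes outside the NF-kB list also fell by a log2 change of more than 1. CYP1B1, a cytochrome P450 induced through the aryl hydrocarbon receptor, was at 46.6, 29.4 and 16.2 RPKM in control and 13.3, 10.5 and 7.65 RPKM in CAF medium (-1.42, SE 0.16, adjusted p = 0.00953). SLC30A1, the exporter of zinc at the cell surface, was at 9.99, 9.14 and 5.14 RPKM against 4.33, 3.58 and 1.38 RPKM (-1.31, SE 0.17, adjusted p = 0.00953), the only 1 of 6 tested metallothionein and zinc genes to pass. ENC1 (-1.24, SE 0.14) and the noncoding RNA CCAT1 (-1.25, SE 0.19) followed the same course. Levels of all 4 came down with time in both media, and the CAF medium libraries were below the control of their own time throughout. TNFRSF12A, the receptor for TWEAK, was at 127, 109 and 81.0 RPKM against 40.7, 55.2 and 41 RPKM (-1.19, SE 0.18, adjusted p = 0.0105). HSPA8, the constitutive cytosolic HSP70, was the most abundant gene of at least 400 bases to fall, at 755, 1032 and 1236 RPKM against 478, 482 and 655 RPKM (-0.89, SE 0.17, adjusted p = 0.0210). It was the only 1 of 25 tested chaperones to pass. The median of that list was -0.10, and 11 were lower at 3 of 3 times, against 18.0% of all tested genes. The RNA helicase gene DDX5 was 408, 421 and 325 RPKM in control and 361, 234 and 169 RPKM in CAF medium (-0.66, adjusted p = 0.0428), so its groups overlapped through the 3 h library.

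Of 30 tested DNA replication genes 2 fell, against 1.90% of all tested genes, and none rose. The median was -0.19, and the median difference went from 0.07 at 3 h to -0.28 and -0.32 at 6 and 12 h. At 3 of 3 times 11 of the 30 were lower, against 18.0% of all tested genes. CCNE2, the cyclin E2 that starts S phase, was at 4.90, 5.42 and 3.69 RPKM in control and 2.73, 1.79 and 0.73 RPKM in CAF medium (-1.29, SE 0.26, adjusted p = 0.0228). RRM2, of ribonucleotide reductase, was at 50.2, 63.3 and 40.2 RPKM against 38.8, 38.0 and 21.8 RPKM (-0.65, adjusted p = 0.0441). Both groups were apart, with the lowest level in CAF medium at 12 h. Of 28 tested mitosis genes 1 rose, the phosphatase gene CDC25C (5.98 to 6.80 RPKM in control and 10.6 to 16.0 RPKM in CAF medium, 0.90, adjusted p = 0.0230), none fell, and the median was 0.12, with median differences of 0.31, -0.08 and 0.25 at 3, 6 and 12 h. That 1 rise stands against 3.66% of all tested genes. Of 21 tested D cyclins, CDK inhibitors and p53 targets CDKN2D, which encodes p19, and the apoptosis gene BBC3 rose (0.94 and 0.99), and CCND1, the cyclin D1 gene, fell (63.9, 69.7 and 47.2 RPKM against 42.5, 47.6 and 37.1 RPKM, -0.49, adjusted p = 0.0443). CCND1 overlapped between the groups through its control library of 12 h. Of 24 tested MYC, polyamine and ribosome biogenesis genes 2 fell, against 1.90% of all tested genes. They were ODC1, which makes putrescine (-0.85, adjusted p = 0.0324), and RRS1 (-0.76, adjusted p = 0.0337). The list's median was -0.33, and 14 were lower at 3 of 3 times, against 18.0% of all tested genes.

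Of 27 tested hypoxia and glycolysis genes 1 fell, against 1.90% of all tested genes. It was the vasoactive peptide gene ADM, at 98.2, 79.7 and 47.7 RPKM in control and 49.8, 25.0 and 22.8 RPKM in CAF medium (-1.22, SE 0.26, adjusted p = 0.0283). The list's median was -0.37 and moved from 0.01 at 3 h to -0.53 at 12 h, with VEGFA (-0.99, adjusted p = 0.0687) and ANGPTL4 (-0.97, adjusted p = 0.0603) lower at each time without passing. At 3 of 3 times 10 of the 27 were lower, against 18.0% of all tested genes. Of 22 tested ATF4 and amino acid genes 4 fell and 1 rose, against 1.90% and 3.66% of all tested genes. All but ATF5 and STC2 of them were amino acid transporters. SLC38A2, a carrier of small neutral amino acids, was at 13.1, 19 and 17.6 RPKM in control and 41.3, 39.1 and 26.8 RPKM in CAF medium (1.08, SE 0.18, adjusted p = 0.0131). SLC7A5, a carrier of large neutral ones, was at 112, 97.6 and 67.4 RPKM against 108, 39.5 and 26.1 RPKM (-0.90, adjusted p = 0.0489), with no gap at 3 h. SLC7A1, for cationic amino acids (-0.70), the transcription factor ATF5 (-1.10) and the secreted stanniocalcin STC2 (-0.82) also fell. ATF4 itself had a log2 change of 0.00 (adjusted p = 0.999). Of 22 tested NRF2 targets 2 fell, against 1.90% of all tested genes. They were OSGIN1 (-1.34, adjusted p = 0.0123) and the sulfiredoxin gene SRXN1 (-0.64, adjusted p = 0.0373), and the list's median was -0.15. Of 23 tested sterol and fatty acid genes 2 rose, squalene synthase FDFT1 (0.75, adjusted p = 0.0349) and SREBF1, the factor of lipid synthesis (0.94, adjusted p = 0.0371). The median of that list was 0.27, and 11 were higher at 3 of 3 times, against 25.9% of all tested genes.

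The series is titled for markers of epithelial-mesenchymal transition, and such genes changed in both directions in the first 12 h. Of 20 tested mesenchymal genes and transition factors 1 rose and 2 fell (median 0.07), and of 15 tested epithelial junction and keratin genes 2 rose and 2 fell (median 0.15), against 5.56% of all tested genes called either way. ITGA5, the fibronectin receptor subunit, rose (0.72, adjusted p = 0.0480), while the matrix glycoprotein THBS1 (63.2, 47.1 and 28.1 RPKM in control, 24.9, 24.5 and 14.8 RPKM in CAF medium, -1.05, SE 0.13, adjusted p = 0.00953) and the transition factor SNAI2 (-0.56, adjusted p = 0.0345) fell. Of the epithelial genes KRT19 and OCLN (0.61, adjusted p = 0.0480) rose, and CLDN1 (-0.91, adjusted p = 0.0293) and KRT80 (-0.59, adjusted p = 0.0325) fell. OCLN and CLDN1, both of tight junctions, thus had opposite signs. Of 19 tested TGF-beta genes the ligand gene TGFB1 rose, at 49.4, 51.2 and 54.4 RPKM against 66.7, 93.9 and 99.96 RPKM (0.72, SE 0.17, adjusted p = 0.0380), and the integrin gene ITGB6, whose product activates that ligand, fell (-0.71, adjusted p = 0.0430). Of 12 tested BMP and ID genes 2 fell, against 1.90% of all tested genes. They were ID2 (11.4 to 13.8 RPKM in control, 5.22 to 8.70 RPKM in CAF medium, -0.87, SE 0.14, adjusted p = 0.0123) and ID3 (34.5 to 39.3 RPKM against 19.2 to 25.9 RPKM, -0.73, SE 0.13, adjusted p = 0.0170). These inhibitors of helix-loop-helix factors are BMP targets, and the third, ID1, did not pass (adjusted p = 0.133). Of 14 tested proteases and plasminogen genes MMP14 rose and MMP24 fell (0.91 and -0.61). The fibroblast marker COL1A1 rose, at 1.91, 1.37 and 2.89 RPKM against 5.81, 4.02 and 4.84 RPKM (1.11, SE 0.23, adjusted p = 0.0264), with its partner chain COL1A2 at no more than 0.02 RPKM in any library. Of the 8 tested lung and A549 identity genes FOXA2 rose (0.60) and MUC1 fell (-0.86).

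Of 17 tested glucocorticoid and circadian genes 4 rose, against 3.66% of all tested genes, and none fell. All 4 were clock genes: DBP (1.22, adjusted p = 0.0257), NR1D1 (0.87, adjusted p = 0.0442), PER1 (0.83, adjusted p = 0.0287) and RORA (0.74, adjusted p = 0.0313). DBP was at 1.01, 0.67 and 0.60 RPKM in control and 1.83, 2.32 and 3.27 RPKM in CAF medium, and PER1 at 4.27, 3.55 and 2.75 RPKM against 9.36, 5.03 and 5.93 RPKM. The groups were apart in both. Other clock genes were lower at 3 of 3 times without passing, PER2 (-0.49, adjusted p = 0.0970), CRY1 (-0.27, 0.243), CLOCK (-0.22, 0.417) and BHLHE41 (-0.33, 0.353), as was the glucocorticoid-responsive kinase gene SGK1 (-0.49, 0.0931). The glucocorticoid-responsive FKBP5 (0.58, adjusted p = 0.126) and TSC22D3 (0.66, adjusted p = 0.141) did not pass. Of 17 tested interferon-stimulated genes HERC6 (-0.71, adjusted p = 0.0391) and OAS3 (-0.61, adjusted p = 0.0300) fell, against 1.90% of all tested genes. The remaining lists had at most 1 call: SPRED3 (0.74) of 15 MAPK feedback genes and DKK3 (0.83) of 20 Wnt genes rose, SNHG15 (-0.99) of 13 snoRNA host genes fell, and none passed of 19 EGF and FGF ligands and receptors or of 10 iron genes. Of the 20 Wnt genes 9 were higher at 3 of 3 times, against 25.9% of all tested genes.

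Read time by time, without a test, genes at least 2-fold higher in CAF medium grew in number from 3 to 12 h. A log2 difference of at least 1 was reached at 3 h by 129 genes higher in CAF medium (1.10%) and 115 lower (0.980%), at 6 h by 241 (2.05%) and 122 (1.04%), and at 12 h by 303 (2.58%) and 163 (1.39%). The order of the genes lower in CAF medium depended on the handling of low values, with 90, 71 and 95 at 3, 6 and 12 h for a pseudocount of 1 and 63, 58 and 100 for a mean of at least 5 RPKM. Across genes, the log2 differences of 3 and 12 h had a Pearson r of 0.30, against 0.44 for 3 and 6 h and 0.56 for 6 and 12 h (11735 genes each, described without a test). The genes share their library and its depth in each such comparison. Only 17 genes were at least 1 higher and 13 at least 1 lower at all 3 times. Among genes with at least 5 RPKM, the largest differences at 3 h were in KRT19, HES7 and C17orf59 upward and CCL2, ANKRD1 and SAA2 downward. At 6 h they were HES7, YPEL3 and G0S2, and METTL1, CCL2 and BC005927. At 12 h they were GBX1, PALM3 and LINC00263, and CCL2, IGFBP3 and the TNF family ligand gene TNFSF14. C17orf59 was at 1.89, 3.85 and 3.78 RPKM in control and steady at 7.60, 7.68 and 8.03 RPKM in CAF medium (1.22, SE 0.18, adjusted p = 0.0105). METTL1, a tRNA methyltransferase gene, was at 6.62, 8.45 and 5.54 RPKM against 3.89, 1.88 and 2.50 RPKM (-1.21, SE 0.22, adjusted p = 0.0184).

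The early response was set against that of 24 to 72 h in the same limma fit, with a test of the difference itself. It was higher early in 42 genes (0.358%) and lower early in 7 (0.0597%), with 1370 genes at an unadjusted p under 0.05. The 42 were mostly genes that fell late: 37 of them fell past the test at 24 to 72 h, 7 rose past the test at 3 to 12 h, and 38 had opposite signs in the 2 periods. The mitotic kinesin gene KIF20A was at 19.7, 19.7 and 19.9 RPKM in control and 25.2, 24.4 and 26.5 RPKM in CAF medium early (0.35, adjusted p = 0.170), with a late log2 change of -1.18. CDC25C and C2orf48 had risen early, the second at 19.6, 22.5 and 17.6 RPKM in control and 34.2, 40.3 and 35 RPKM in CAF medium (0.86, adjusted p = 0.0199). Both were lower late, with log2 changes of -0.81 and -0.89. The mitosis list had a median of 0.12 early and -1.01 late. In the other direction IL6 had log2 changes of -1.60 early and 0.75 late, SOD2 -1.02 and 0.48, and STC2 -0.82 and 0.68, and the NF-kB list a median of -0.97 early and 0.11 late. Of the 430 genes that rose early 383 had the same sign late, 40 rose past the late test and 2 fell past it. Of the 223 that fell 192 had the same sign and 28 fell past the late test. Among all tested genes 128 rose and 322 fell past the late test. The share of all tested genes with the same sign in both periods is not given here. Both effects share the estimate of spread of a gene, which favours calls in both periods. Whether the early calls last more often than other genes would was not tested. TXNIP was as high late as early (2.44 and 2.34). The difference between the periods was sensitive to single pairs: no gene passed it when the 3, 12 or 48 h pair was left out, 1 passed on leaving out the 6 h pair and 3 the 72 h pair, and 248 on leaving out the 24 h pair.

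**Figure D5:**
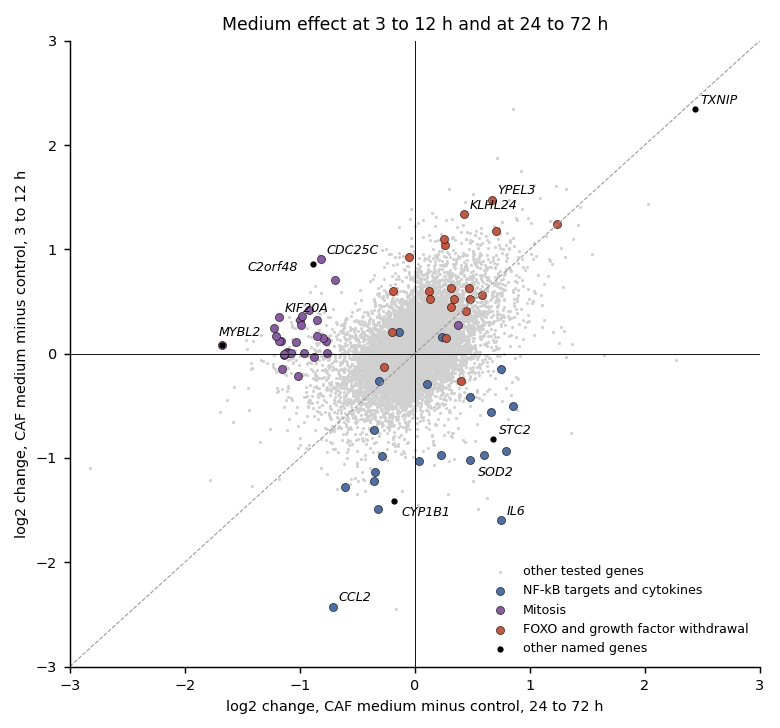
Fitted log2 change at 3 to 12 h (y axis) against that at 24 to 72 h (x axis), CAF medium minus control, for 11735 genes, with NF-kB targets in blue, mitosis genes in purple, FOXO genes in red and other named genes in black; the dashed line marks equal changes. Mitosis genes lie left of 0 and near 0 on the y axis (medians -1.01 late and 0.12 early), and NF-kB targets other than IL11 and REL lie below 0 on the y axis, with a late median of 0.11.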

How the data were processed

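RNA of A549 cells was sequenced after poly(A) selection in 12 mRNA libraries, 1 per medium and time, of which the 6 of 3, 6 and 12 h are described and the 6 of 24, 48 and 72 h share the estimate of spread. The 12 small RNA libraries were not used here. The authors deposited RPKM (reads scaled to gene model length and to mapped reads) to 2 decimals, with each gene model's length. The build hg19 and the tools TopHat2 and edgeR are named per the submitters' processing notes, without versions. Libraries were directional per the labels' protocols. How reads were counted, whether strand was used, which annotation served and how the 2 biological replicates were joined is not given in the sources used here, so reads of overlapping or antisense genes and of near-identical copies cannot be told apart. Depth was recovered from gene models under 400 bases, where 100% of 77 to 97 values per library of 3 to 12 h were whole reads within 0.1 read. Columns were matched to samples through the code in each sample's description.

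Tests used R 4.3.3 and limma 3.58.1 (lmFit, eBayes with a mean-variance trend, two-sided) on log2(RPKM + 0.5), a scale that understates the change of low genes. The fit held 12 libraries with time as a factor, 1 medium effect for 3 to 12 h and 1 for 24 to 72 h, and 4 residual degrees of freedom. It was tested on simulated data. p-values were adjusted by Benjamini-Hochberg over 11735 genes whose mean reached 1 RPKM. No test was made at single times, where log2 differences of 1 or more were counted. The 34 gene lists had no set test. Symbols were those of the table.

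Genes named were, among those past the test with the same sign at 3 of 3 times and a model of at least 400 bases, the 12 with the largest change each way and the 8 with the largest RPKM difference each way. The called members of each list and up to 4 others, the 6 largest early-late differences each way, and the 3 highest and 3 lowest genes of a time with at least 5 RPKM were added. The members, lists and rule were chosen with earlier results of these data known. Alternatives changed the pseudocount (0.1, 1), the filter (none, 5 RPKM, models of at least 400 bases), scaling (median centring, quantile normalization), the trend, the time term and the libraries fitted, or left out 1 pair.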

Additional observations from a re-analysis of the deposited data

Results flagged for a closer look

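In 13 named genes the medium effect at 3 to 12 h differed from that at 24 to 72 h in a test of the difference itself (limma, Benjamini-Hochberg adjusted over 11735 genes). The effect was higher early, on the log2 scale, by 1.75 in MYBL2, 1.75 in C2orf48, 1.72 in CDC25C, 1.60 in SPC25, 1.53 in KIF20A and 1.53 in NCAPG, each with an adjusted p of 0.0378. All but C2orf48 are known genes of the cell cycle. MYBL2, SPC25 and NCAPG had early log2 changes of 0.08, 0.13 and 0.12 and late ones of -1.67, -1.47 and -1.41, so their difference lay in the later period. The early minus late value was -2.35 in IL6 (adjusted p = 0.0378), -2.12 in PIP (0.0378), -1.50 in STC2 (0.0389), -1.50 in SOD2 (0.0389), -1.28 in BC016015 (0.0378), -1.24 in FGL1 (0.0471) and -1.24 in CYP1B1 (0.0489). Among these, CYP1B1 had the same sign in both periods (-1.42 early and -0.18 late). FGL1, a secreted liver protein, was at 4.78 to 7.86 RPKM in control and 4.28 to 4.72 RPKM in CAF medium early (-0.40, adjusted p = 0.151), with a late change of 0.84. PIP was at 1.44 to 1.96 RPKM against 0.53 to 1.02 RPKM early (-0.76, adjusted p = 0.0525), with a late change of 1.36. The libraries of 24 to 72 h were also deeper, at 33.9 to 40.6 M reads, and the part of depth in these differences was not tested.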

How the results depend on the processing

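The counts depended on few libraries. Leaving out 1 pair at a time gave 0 to 707 genes that rose and 0 to 311 that fell (7 and 8 on leaving out the 6 h pair), 0 to 192 higher early than late and 0 to 56 lower. With no filter on low values none rose or fell (limma, 3797 genes at an unadjusted p under 0.05) and the early-late difference had none either way (1968 unadjusted). With a mean of at least 5 RPKM 200 rose, 145 fell, 78 were higher early and 16 lower. Without the trend the difference had 0 (1373 unadjusted). The main fit pairs the media by time through its time term, and without that term 11 rose, 4 fell and the difference had 0 (811 unadjusted). Median centring gave 398 rises and 292 falls, quantile normalization 352 and 267, and neither moved the median of all genes by more than 0.04 on the log2 scale. Of 103 named genes that passed, 84 passed under every scaling, pseudocount, trend, length and 6-library setting that tested them, and 70, 8 and 0 on leaving out the 3, 6 and 12 h pair. Signs turned in 4 genes that had not passed: the log2 change of ANKRD1 became 0.0138, that of FAP 0.0733 and that of S100A4 0.0138 on leaving out the 3 h pair, and that of FBN1 0.113 on leaving out the 12 h pair. The cause was not tested.

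Counts of genes at least 2-fold higher or lower at a single time moved with the handling of low values. With a pseudocount of 0.1 they were 222 higher at 3 h, 389 higher at 6 h and 264 lower at 12 h. With a pseudocount of 1 they were 70 higher at 3 h, 90 lower at 3 h, 132 higher and 71 lower at 6 h, and 201 higher and 95 lower at 12 h. With a mean of at least 5 RPKM they were 39 higher and 63 lower at 3 h, 81 and 58 at 6 h, and 107 and 100 at 12 h.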

Other observations

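Genes that rose in CAF medium were unevenly spread over the genome. Chromosome 19, which holds many short and densely packed genes, carried 57 of the 430 genes that rose (13.3%) and 8 of the 223 that fell (3.59%), against 779 of all 11735 tested genes (6.64%). The median gene model length was 2982 bases among genes that rose, 3264 among those that fell and 3517 among all tested. Across all tested genes the relation of the log2 difference to gene model length changed sign over the first hours, with a Spearman rho of 0.20 at 3 h, -0.08 at 6 h and -0.21 at 12 h. With the GC content of the promoter it was 0.04, 0.05 and 0.03 over the 8499 genes with one. These values are descriptions across genes that share their libraries, and the part of RNA quality or library preparation in them was not tested.

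Control medium was not constant over these hours. Genes that fell in CAF medium also came down in control medium between 3 and 12 h, with a median log2 difference of -0.32, and in CAF medium with -0.50, against -0.05 and -0.10 for all tested genes. Genes that rose went up by medians of 0.15 in control and 0.30 in CAF medium.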
